A study of Mus musculus with 6 samples.

Results

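Macrophage-restricted and macrophage-enriched genes were followed in cultures of cancer-associated fibroblasts (CAFs), fibroblasts taken from the stroma of a tumour. The genes were chosen by symbol: 34 symbols were listed, Adgre1 was absent under that name but present as Emr1, its older symbol, and 33 of the 24015 symbols in the count table were members. The CAFs were grown out of mammary tumours of NeuT mice, which carry an activated rat Neu (Erbb2) oncogene as a transgene, on a BalbC background. All 6 samples received nanoparticles at 1 ug/mL for 72 h. In 3 samples (control siRNA 1, 2 and 3) these carried a control siRNA, and in the other 3 (anti-Stat3 siRNA 1, 2 and 3) an siRNA against Stat3, a transcription factor downstream of the IL-6 receptor. The study asked which genes STAT3 controls in CAFs. The promoter of the transgene, the age of the animals and whether samples of a group came from separate animals or cultures are not given in the sources used here.

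Macrophages are phagocytes that live in most tissues and are abundant in mammary tumours. Their survival depends on the receptor CSF1R and its ligands CSF1 and IL-34, and their gene program is set in large part by the transcription factor PU.1 (Spi1). They carry receptors for antibodies, complement, lipoproteins and dying cells, and they degrade what they take up with lysozyme, cathepsins and oxygen radicals. Several listed genes are less restricted: Apoe, Gpnmb, Cd14 and Lcp1 can also be transcribed by other cells, fibroblasts or tumour cells among them.

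Samples held between 12998168 and 18683852 counts in total, so that 3 counts corresponded to between 0.161 and 0.231 CPM, a gene's count scaled to a common library size. Where a gene had 0 counts, a level up to that value was possible, counting error only. Levels are in CPM scaled by TMM factors throughout, and a "pair" is the control and the anti-Stat3 sample of the same number. Stat3 itself had 220.2, 358 and 405 CPM across the controls and 34.7, 81.8 and 78.8 CPM across the anti-Stat3 samples, so every anti-Stat3 sample was below every control. Fibroblast genes were abundant in all samples with a summed level of 17 genes between 45310 and 111372 CPM. P-values measure the spread between these samples only, which may be technical.

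Levels of the 33 genes differed more between pairs than between the siRNAs in most of them (the plot of levels by sample). Each had its lowest mean level in pair 1, and 28 had their highest in pair 3 and 5 (Cd53, Cd14, Cd163, Mertk and Lcp1) in pair 2. Summed over the 33 genes, the level was 136, 2431 and 3292 CPM in controls 1, 2 and 3 and 121, 2434 and 3788 CPM in the matching anti-Stat3 samples. Pair 2 was thus 18.9-fold and pair 3 27.5-fold above pair 1. As a share of all counts, the members took 0.0137% (Wilson 95% interval 0.0131% to 0.0143%) of control 1 and 0.0121% (0.0116% to 0.0126%) of anti-Stat3 1. The shares in pair 2 were 0.246% (0.244% to 0.248%) and 0.250% (0.248% to 0.253%), and those in pair 3 0.314% (0.311% to 0.317%) and 0.380% (0.377% to 0.383%). In bulk RNA, fewer cells of a type and less RNA per cell cannot be told apart.

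**Figure D1:**
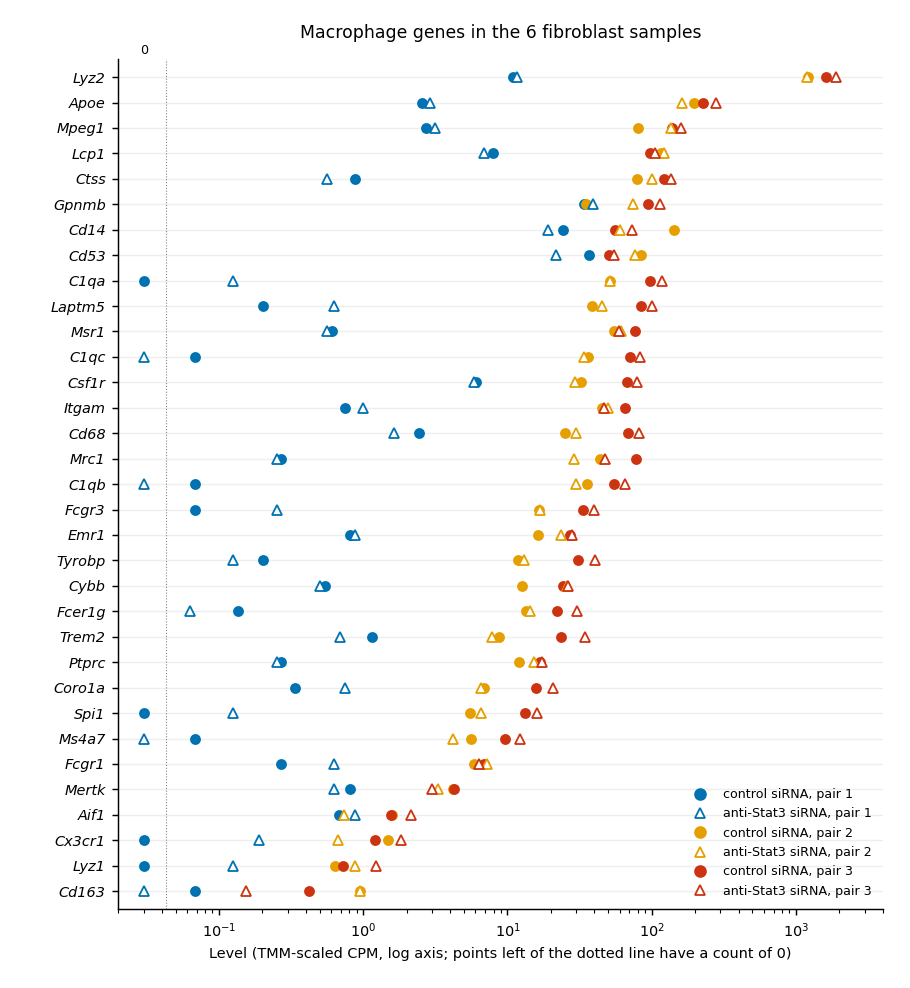
Level of each of the 33 macrophage genes (rows, ordered by mean level) in each of the 6 samples, in CPM on a log axis; colours are pairs, filled circles control siRNA and open triangles anti-Stat3 siRNA, with counts of 0 left of the dotted line. The pair 1 points lie left of the others in nearly every row, as for Lyz2 at 10.9 and 11.6 CPM against 1196 to 1906 CPM, while circles and triangles of a colour lie close together in most rows.

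A quasi-likelihood test in edgeR with siRNA and pair as terms, adjusted over all 13284 genes tested, set the pairs against each other. Each pair holds 1 control and 1 anti-Stat3 sample, so the p-values rest on the spread left after both terms. They do not measure how far separate animals or cultures differ. Of the members, 32 passed the filter on low counts and Cd163 did not. In pair 2 against pair 1, 30 of 32 were higher at an adjusted p of at most 0.05, where 14.0% of all genes were. In pair 3 against pair 1, 31 of 32 were higher, beside 14.9% of all genes. These counts lean on the filter: 14 of the 32 had fewer than 10 counts in both pair 1 samples and were tested only because they were high in the other pairs. Among the 18 with at least 10 counts in a pair 1 sample, 16 and 17 were higher. The 9 members with at least 1 CPM in every sample were Csf1r, Cd68, Cd53, Cd14, Lyz2, Mpeg1, Lcp1, Apoe and Gpnmb. When only the 11707 genes of that level were tested, these had median log2 differences of 3.78 (pair 2) and 3.77 (pair 3) from pair 1. Of the 9, 8 and 9 passed as higher. The share of all 11707 genes that passed as higher was not counted. The 32 had medians of 5.42 and 5.82, beside 0.00 over all genes in both contrasts.

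Among all genes tested, 709 (5.34%) were at least 2-fold higher in pairs 2 and 3 than in pair 1, and 33.2% were lowest in pair 1. The members took 16 of the 100 genes with the largest log2 difference of pair 2 over pair 1, and 18 of the 100 of pair 3 over pair 1. This tally leans on the filter too, since it includes the 14 members with fewer than 10 counts in both pair 1 samples. It was not made for the better detected members alone. The size of the difference varied widely among them, from a ratio of 1.42 for Gpnmb in pair 2 to 2344 for C1qc in pair 3 (the plot of pair ratios).

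**Figure D2:**
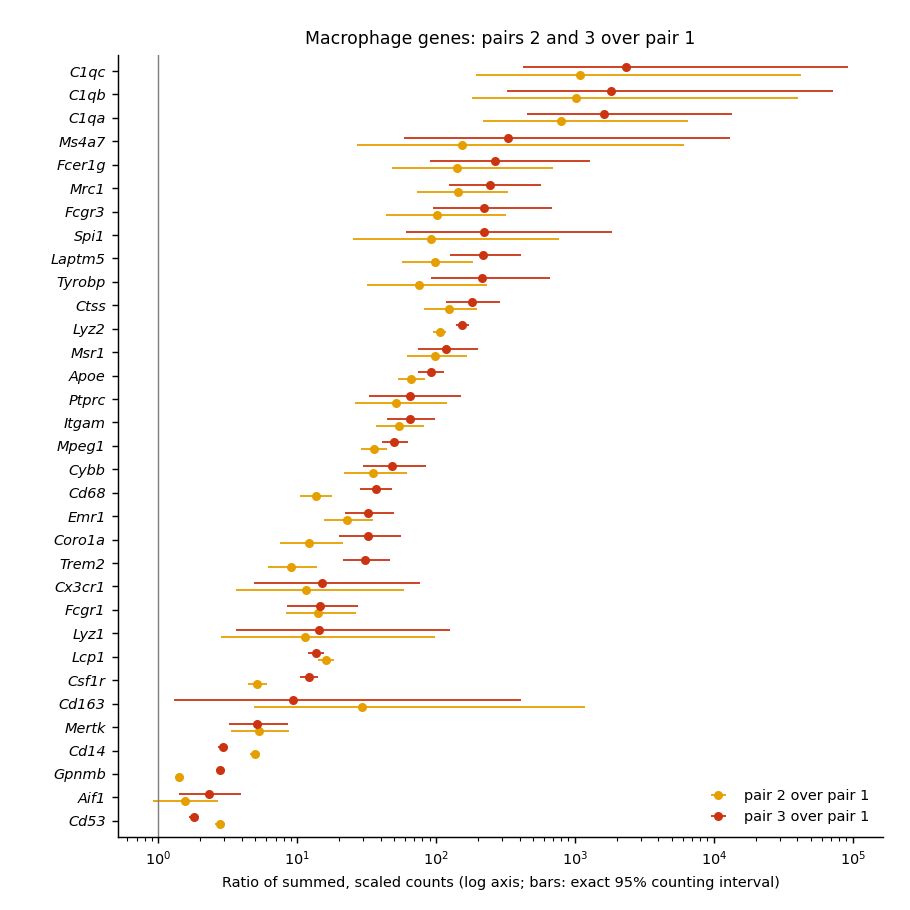
Ratio of the summed, scaled counts of pair 2 (orange) and pair 3 (red) over pair 1 for the 33 genes, ordered by the pair 3 ratio, on a log axis; bars are exact 95% intervals for counting error, and the grey line marks a ratio of 1. The C1q genes lie at the top, at 790.5 (C1qa in pair 2) and above, and Cd53, Aif1, Gpnmb and Cd14 at the bottom, below 5; the interval of Aif1 in pair 2 includes 1.

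The receptor, its ligands and the transcription factors were not alike in level. Csf1r, the receptor for CSF1 and IL-34, had 6.08, 32.2 and 67.3 CPM across the controls and 5.89, 29.5 and 79.1 CPM across the anti-Stat3 samples. It was detected in pair 1 by 184 counts. Its level was lowest in pair 1 and highest in pair 3, with no overlap between pairs. Its log2 difference was 2.37 ± 0.16 (SE, edgeR adjusted p = 1.1e-04) in pair 2 and 3.61 ± 0.16 (SE, edgeR adjusted p = 2.3e-05) in pair 3 against pair 1. Spi1, which encodes PU.1, was listed with 0 counts in control 1 and 2 counts in anti-Stat3 1, and reached 92.0 (25.1 to 765) times that level in pair 2 and 222 (61.2 to 1843) times in pair 3, with counting intervals in brackets. Cx3cr1, the fractalkine receptor of monocytes and some resident macrophages, was scarce everywhere, at most 1.84 CPM in anti-Stat3 3, with ratios of 11.5 (3.66 to 58.4) and 15.2 (4.86 to 76.4).

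Of the ligands, Csf1 ran the other way and Il34 did so only in part. Csf1 was at 3951, 976 and 1463 CPM across the controls and 3734, 1675 and 1722 CPM across the anti-Stat3 samples, and both pair 1 samples were above the other 4. Its log2 difference was -1.58 ± 0.23 (SE, edgeR adjusted p = 0.0029) for pair 2 and -1.29 ± 0.23 (SE, edgeR adjusted p = 0.006) for pair 3 against pair 1. Il34 had 8.31, 3.12 and 3.77 and 6.95, 3.77 and 7.36 CPM and passed as lower in pair 2 but not in pair 3 (edgeR adjusted p = 0.24). Csf2, which encodes GM-CSF, a growth factor of myeloid cells, had 277, 2 and 0 counts across the controls and 149, 2 and 0 counts across the anti-Stat3 samples, nearly all in pair 1. Its receptor chain Csf2rb had 0.338, 9.99 and 11.2 and 0.689, 10.0 and 8.28 CPM and was higher in pairs 2 and 3, with log2 differences of 4.24 and 4.20. Il34, Csf2 and Csf2rb were named after their values were seen. In the list of 10 macrophage growth factors and their other receptors, 8 were tested. Of these, 3 passed as higher and 5 as lower in pair 2, and 3 and 4 in pair 3, beside 12.1% and 14.1% of all genes lower. Sdc1 and Ptprz1, cell surface binding partners of IL-34, were among those lower in both contrasts.

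**Figure D3:**
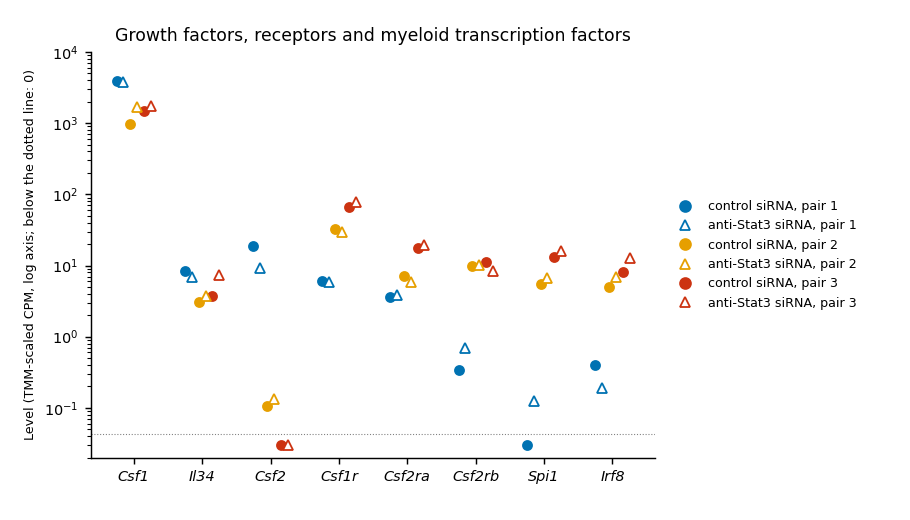
Levels in CPM (log axis) of the growth factors Csf1, Il34 and Csf2, the receptor genes Csf1r, Csf2ra and Csf2rb, and the transcription factors Spi1 and Irf8 in the 6 samples; colours are pairs, circles control and triangles anti-Stat3 siRNA, and points below the dotted line have a count of 0. Csf1 and Csf2 are highest in pair 1, and the receptors and transcription factors are lowest there.

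Lineage and surface markers were higher by very different factors. Ptprc, the CD45 phosphatase of all white blood cells, had 8 counts summed over pair 1 and was 51.6 (25.9 to 120.2) times higher in pair 2 and 65.4 (33.0 to 152) times higher in pair 3. Emr1, which encodes the F4/80 antigen, had 0.811, 16.3 and 27.1 and 0.877, 23.5 and 28.2 CPM and Itgam, the CD11b integrin chain, 0.743, 45.5 and 65.3 and 1.00, 50.0 and 46.7 CPM in controls and anti-Stat3 samples. For both genes all 4 samples of pairs 2 and 3 lay above both of pair 1. Cd68, a glycoprotein of late endosomes, had 2.43, 25.2 and 68.5 and 1.63, 30.1 and 81.2 CPM, with pair 3 above pair 2 by 1.44 ± 0.18 (SE, edgeR adjusted p = 0.0023) on the log2 scale. Laptm5, a lysosomal protein of blood cells, had 0.203, 38.4 and 84.9 and 0.626, 45.4 and 100.3 CPM and was 98.2 and 217 times higher in pairs 2 and 3 than in pair 1. Ms4a7, a membrane protein of macrophages, had 1 count in pair 1 and ratios of 153 (27.1 to 6079) and 332 (59.2 to 13159.7).

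Cd53, a tetraspanin of white blood cells, stood apart from these markers. Its level was 37.0, 84.3 and 50.4 CPM across the controls and 21.5, 76.3 and 54.6 CPM across the anti-Stat3 samples. Pair 1 was still lowest, but by ratios of only 2.79 (2.58 to 3.01) and 1.80 (1.66 to 1.96), and the log2 differences were 1.48 ± 0.21 (SE, edgeR adjusted p = 0.0028) and 0.88 ± 0.21 (SE, edgeR adjusted p = 0.021). With 891 counts over pair 1 where Ptprc had 8, Cd53 supplied 27.2% of all member counts of control 1 and 17.8% of those of anti-Stat3 1, beside 1.44% to 3.47% in the other 4 samples.

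The Fc receptors and the adaptors they signal through differed strongly between pairs. Summed together with Trem2, a receptor that partners the adaptor Tyrobp, they had 1.82, 56.2 and 116 CPM across the controls. Across the anti-Stat3 samples the sum was 1.75, 59.1 and 152 CPM, with ratios of 32.2 and 74.9 for pairs 2 and 3 over pair 1. Trem2 alone supplied 1.15 of the 1.82 CPM in control 1, so these ratios are not those of the Fc receptors and adaptors by themselves. Fcer1g, the common gamma chain that carries the ITAM signalling motif, had 3 counts in pair 1 and ratios of 142 (48.3 to 691) and 264 (90.1 to 1284). Fcgr3, a low-affinity IgG receptor, had 5 counts in pair 1 and ratios of 103 (43.7 to 317) and 223 (95.1 to 687). Fcgr1, the high-affinity IgG receptor, differed less, by 14.2 (8.27 to 26.4) and 14.6 (8.52 to 27.3). Tyrobp, the ITAM adaptor DAP12, and its partner Trem2, a lipid-sensing receptor, were both higher in pair 3 than in pair 2. Tyrobp had 0.203, 11.7 and 30.7 and 0.125, 12.9 and 40.3 CPM and a log2 difference of pair 3 over pair 2 of 1.51 ± 0.16 (SE, edgeR adjusted p = 0.0011). Trem2 had 1.15, 8.67 and 23.4 and 0.689, 7.80 and 34.5 CPM and a difference of 1.79 ± 0.24 (SE, edgeR adjusted p = 0.003), a ratio of 3.41 and the largest of any member between those pairs.

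Receptors for scavenging and uptake were mixed. Mrc1, the mannose receptor, had 0.27, 43.7 and 77.4 CPM across the controls and 0.251, 29.1 and 47.3 CPM across the anti-Stat3 samples. It was near 0 in pair 1, at 8 counts in all, and its ratios were 143 (72.5 to 332) and 247 (125 to 572). Msr1, a class A scavenger receptor, had 0.608, 54.7 and 76.6 and 0.564, 61.6 and 59.6 CPM, and its ratios were 98.7 and 118. Mertk, a receptor for bridging proteins on dying cells, was at most 4.25 CPM in any sample and had ratios of 5.30 (3.35 to 8.75) and 5.17 (3.25 to 8.59). Cd163, the haemoglobin scavenger receptor, had 1, 18 and 7 counts across the controls and 0, 14 and 2 counts across the anti-Stat3 samples, too few to be tested, with ratios of 29.1 (4.87 to 1187) and 9.31 (1.29 to 408).

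Cd14, the co-receptor for bacterial lipopolysaccharide, was present in pair 1 at 358 and 306 counts. Its level was 24.2, 144 and 55.8 CPM across the controls and 19.2, 60.3 and 72.6 CPM across the anti-Stat3 samples. Control 2 was the highest sample by a wide margin, and its anti-Stat3 partner lay near the pair 3 samples. The log2 difference against pair 1 was 2.18 ± 0.34 (SE, edgeR adjusted p = 0.0041) in pair 2 and 1.61 ± 0.34 (SE, edgeR adjusted p = 0.013) in pair 3. Without control 2 the difference of pair 3 over pair 2 turned from -0.57 to 0.10.

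The complement C1q genes were almost absent in pair 1 and were among the more abundant members per kilobase of exon in pairs 2 and 3. C1q is the recognition molecule of the classical complement pathway, and its A, B and C chains are encoded by neighbouring genes on chromosome 4 in mice. C1qa had 0, 968 and 1618 counts across the controls and 2, 768 and 1534 counts across the anti-Stat3 samples, levels of 0, 51.2 and 97.0 and 0.125, 51.7 and 118 CPM. C1qb and C1qc each had 1 count in control 1 and 0 in anti-Stat3 1, and C1qc reached 0.0676, 36.2 and 70.4 and 0, 33.8 and 83.6 CPM across the 3 pairs. The ratios rest on 1 or 2 counts in pair 1 and their intervals are wide: for C1qa they were 791 (219 to 6533) and 1631 (451 to 13472), and for C1qc 1082 (194 to 42770.4) and 2344 (420.2 to 92612). C1qb had ratios of 1017 (182 to 40216) and 1821 (326 to 71972). The 3 genes were higher in pair 3 than in pair 2, by log2 differences of 1.05, 0.87 and 1.13 in the order A, B and C.

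Promoter sequences from RefSeq (GRCm38.p6) are shown for C1qb and C1qc, which had 1 count each in pair 1 (as had Ms4a7 and Cd163) and some of the largest ratios, and for Cd53, which had one of the smallest. Each is from the 250 bases before an annotated start of transcription, without the 22 bases that for C1qc lie inside the annotated gene, 5′ to 3′ on the gene's own strand, which is the minus strand in all 3. Capitals mark GAGGAA, a core of the PU.1 site, or its reverse complement TTCCTC.
C1qb (chr4:136886201-136886450): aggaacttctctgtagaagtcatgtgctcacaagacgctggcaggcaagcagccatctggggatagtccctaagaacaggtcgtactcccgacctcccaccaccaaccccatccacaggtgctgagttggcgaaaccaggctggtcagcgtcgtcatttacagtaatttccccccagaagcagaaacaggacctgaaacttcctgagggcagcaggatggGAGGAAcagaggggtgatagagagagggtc
C1qc (chr4:136892937-136893164): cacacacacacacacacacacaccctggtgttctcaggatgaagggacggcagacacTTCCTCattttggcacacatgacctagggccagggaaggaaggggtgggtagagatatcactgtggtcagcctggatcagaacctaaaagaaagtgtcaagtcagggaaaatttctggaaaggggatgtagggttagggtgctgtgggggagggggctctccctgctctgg
Cd53 (chr3:106790150-106790399): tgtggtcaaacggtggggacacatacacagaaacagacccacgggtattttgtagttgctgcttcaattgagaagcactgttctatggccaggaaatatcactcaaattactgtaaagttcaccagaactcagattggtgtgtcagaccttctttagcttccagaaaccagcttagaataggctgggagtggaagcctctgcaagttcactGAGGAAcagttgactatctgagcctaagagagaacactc
Each window holds the motif 1 time, on the gene's strand for C1qb and Cd53 and on the other strand for C1qc. Searched on both strands, the motif was in 14 of the 26 members with such a window (53.8%) and in 6986 of all 27025 genes (25.9%). By window, since a gene can have several, it was in 16 of 33 (48.5%) and 7639 of 32851 (23.3%). The motif was chosen with the levels known, and a match describes the letters only.

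Products that kill and degrade carried most of the summed level in pairs 2 and 3, mainly through Lyz2, but not in pair 1. There they had 15.1 of 136 CPM in control 1 and 16.0 of 121 CPM in anti-Stat3 1. Lyz2, the macrophage lysozyme, had 10.9, 1207 and 1613 CPM across the controls and 11.6, 1196 and 1906 CPM across the anti-Stat3 samples. It was 106-fold and 154-fold above pair 1 in pairs 2 and 3, and it took 8.06% and 9.60% of the member counts in pair 1 but 49.0% to 50.3% in the other 4 samples. Per kilobase of exon, Lyz2 was the most abundant member in pair 2 (913 CPM per kb) and in pair 3 (1337 CPM per kb), with Apoe next at 97.8 and 138 CPM per kb. In pair 1 the order was different, with Cd53 at 16.8, Cd14 at 13.2, Lyz2 at 8.59 and Gpnmb at 8.11 CPM per kb.

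Ctss, the cathepsin that trims invariant chain in antigen-presenting cells, had 0.878, 79.4 and 123 and 0.564, 99.97 and 137 CPM and ratios of 124 (81.5 to 198) and 180.3 (119 to 288). Mpeg1, a pore-forming protein of phagosomes, had 2.70, 80.5 and 138 CPM across the controls and 3.13, 135 and 159 CPM across the anti-Stat3 samples, and pairs 2 and 3 were 35.8 and 50.2 times above pair 1. Cybb, the catalytic subunit of the phagocyte NADPH oxidase, had 0.541, 12.5 and 24.4 and 0.501, 25.9 and 26.4 CPM and log2 differences of 5.14 and 5.62. In each of these genes the lowest sample of pairs 2 and 3 was far above both samples of pair 1.

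Lyz1, the lysozyme of Paneth cells, lies next to Lyz2 on chromosome 10 and is its near copy. Its counts were 0, 12 and 12 across the controls and 2, 13 and 16 across the anti-Stat3 samples, beside 17780 to 26916 counts of Lyz2 in pairs 2 and 3. The longest annotated transcripts of the genes (GENCODE M21) were 96.0% identical over 1262 aligned bases, the longest identical run was 118 bases, and 16.1% of the 50-base windows of Lyz1 also occurred in Lyz2. How reads shared by both were counted was not given in the sources used here, which leaves the Lyz1 values uncertain. The same 250-base windows before the start are shown for these neighbours, both on the minus strand. Whether they bear on the difference in level was not tested.
Lyz2 (chr10:117282273-117282522): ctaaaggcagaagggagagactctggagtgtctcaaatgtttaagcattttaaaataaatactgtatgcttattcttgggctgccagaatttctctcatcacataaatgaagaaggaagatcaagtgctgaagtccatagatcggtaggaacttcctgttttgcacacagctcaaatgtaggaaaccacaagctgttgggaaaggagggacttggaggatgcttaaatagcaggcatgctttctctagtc
Lyz1 (chr10:117292869-117293118): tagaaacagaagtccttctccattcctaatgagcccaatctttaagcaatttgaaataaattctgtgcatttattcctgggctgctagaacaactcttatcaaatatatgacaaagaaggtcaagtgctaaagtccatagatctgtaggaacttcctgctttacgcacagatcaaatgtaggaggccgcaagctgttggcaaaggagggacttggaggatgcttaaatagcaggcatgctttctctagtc
The windows were identical at 200 of 248 aligned bases (80.6%), and neither holds the motif above.

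Genes of the actin cytoskeleton were split. Lcp1, the actin bundler L-plastin, had 7.97, 117 and 97.3 and 6.89, 122 and 105 CPM in controls and anti-Stat3 samples. It was 16.1 and 13.6 times above pair 1 in pairs 2 and 3, from 228 counts in pair 1. Coro1a, a coronin of white blood cells, had ratios of 12.3 (7.50 to 21.4) and 32.6 (20.1 to 56.3). Aif1, known as IBA1 and a standard stain for macrophages and microglia, had only 10, 30 and 26 counts across the controls and 14, 11 and 28 counts across the anti-Stat3 samples. Its levels of 0.676, 1.59 and 1.56 and 0.877, 0.74 and 2.15 CPM overlapped between pairs 1 and 2. It was the single tested member that passed in neither contrast with pair 1, with log2 differences of 0.60 ± 0.50 (SE, edgeR adjusted p = 0.42) and 1.22 ± 0.48 (SE, edgeR adjusted p = 0.097). Per kilobase it ranked 10 among the members in pair 1 and 29 in pairs 2 and 3.

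The lipid and lysosome genes differed by unlike factors. Apoe, the apolipoprotein that macrophages secrete, had 2.57, 198 and 228 CPM across the controls and 2.88, 161 and 278 CPM across the anti-Stat3 samples, with ratios of 66.6 (53.7 to 83.6) and 91.5 (73.8 to 115). Gpnmb, a glycoprotein of lysosome-rich cells, had 33.8, 35.2 and 94.3 CPM across the controls and 39.4, 73.8 and 114 CPM across the anti-Stat3 samples, and control 2 lay between the pair 1 samples. Its log2 difference was 0.50 ± 0.22 (SE, edgeR adjusted p = 0.13) for pair 2 and 1.51 ± 0.22 (SE, edgeR adjusted p = 0.0026) for pair 3 against pair 1. The pair 2 value moved to 0.90 without control 2, where the test passed (edgeR adjusted p = 0.020), and the pair 3 value to 1.32 without control 3, where it did not (edgeR adjusted p = 0.051). Gpnmb alone was 24.9% and 32.5% of the member counts in pair 1 and 1.45% to 3.03% elsewhere.

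Pairs 2 and 3 differed from each other by much less. Of the 32 members tested, 17 were higher in pair 3 (13.0% of all genes were), 0 were lower (12.2% of all genes were) and 15 did not pass, with a median log2 difference of 0.58 beside 0.02 over all genes. At an unadjusted p under 0.05 the counts were 20 higher and 1 lower, beside 20.8% and 19.3% of all genes. DESeq2 called 16 higher and also Cd53 lower, at -0.62 (DESeq2 adjusted p = 0.0499). Those that passed in edgeR were the 3 C1q genes, Cd68, Coro1a, Csf1r, Ctss, Fcer1g, Fcgr3, Gpnmb, Laptm5, Lyz2, Mrc1, Ms4a7, Spi1, Trem2 and Tyrobp. Lcp1, Cd14, Cd53 and Mertk had negative differences, from -0.05 to -0.60, and did not pass in edgeR with all samples. Cd53 passed as lower without control 1 (edgeR adjusted p = 0.0086) and without anti-Stat3 1 (edgeR adjusted p = 0.0039). The count of 17 rests on single samples: it was 8 without control 3, 5 without anti-Stat3 2 and 1 without anti-Stat3 3, and 6 in limma-voom. The sample descriptions of pair 3 follow another naming scheme than those of pairs 1 and 2, so that scheme and pair 3 cannot be told apart, while pair 2 against pair 1 is a contrast within 1 scheme.

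Silencing of Stat3 was not accompanied by a called change in any member. In edgeR with the group as the only term, 0 of 32 members passed, as did 0.00% of all genes, and 0 members (235 of all genes) had an unadjusted p under 0.05. Stat3 itself, at -2.33 ± 0.41 (SE), did not pass in that fit, though it did with the pair as a block (edgeR adjusted p = 0.0027). A fit that misses the silenced gene cannot show that the members were unchanged. DESeq2 with the group alone called 0 members and 17 genes in all. The median log2 change was 0.15 over the members and 0.00 over all genes, with 24 values above 0 and 8 below, from -0.67 to 0.67. The spread between pairs within a group was far larger than that: Lyz2 was at 944 ± 833 CPM (SD, n = 3) in the controls and 1038 ± 957 CPM (SD, n = 3) after anti-Stat3 siRNA, a log2 change of 0.14 ± 1.80 (SE, edgeR adjusted p = 1.00). C1qa was at 49.4 ± 48.5 CPM (SD, n = 3) and 56.5 ± 58.9 CPM (SD, n = 3), and Csf1r at 35.2 ± 30.7 CPM (SD, n = 3) and 38.2 ± 37.4 CPM (SD, n = 3). The groups overlapped for all 32, where they did not for 4.67% of all genes. Each group holds a pair 1 sample, far below the others for most members. That overlap was therefore nearly fixed in advance and cannot show whether the members changed with the siRNA. An exact permutation test of 3 against 3 samples cannot give a two-sided p under 0.1.

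With the pair as a block, edgeR again called 0 of 32 members, beside 0.0602% of all genes, with a median change of 0.12, and 4 (Mpeg1, Gpnmb and Cybb higher, Mrc1 lower) had an unadjusted p under 0.05, as did 10.8% of all genes, a share close to these 4 of 32. DESeq2 with the block called 0, beside 1.66% of all genes, with 3 members and 8.05% of all genes at an unadjusted p under 0.05 and the adjusted p of Lyz1 not given by the tool. By sign, 8 members were higher after anti-Stat3 siRNA in all 3 pairs (Mpeg1, Gpnmb, C1qa, Laptm5, Fcgr3, Emr1, Spi1 and Lyz1), 2 were lower (Mrc1 and Mertk) and 22 were mixed. For several of these the sign in pair 1 rests on few counts. Control 1 and anti-Stat3 1 had 0 and 2 counts of C1qa, Spi1 and Lyz1, 1 and 4 of Fcgr3, 3 and 10 of Laptm5, and 4 and 4 of Mrc1. Of all genes, 33.8% had the same sign in every pair, a share close to these 10 of 32.

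**Figure D4:**
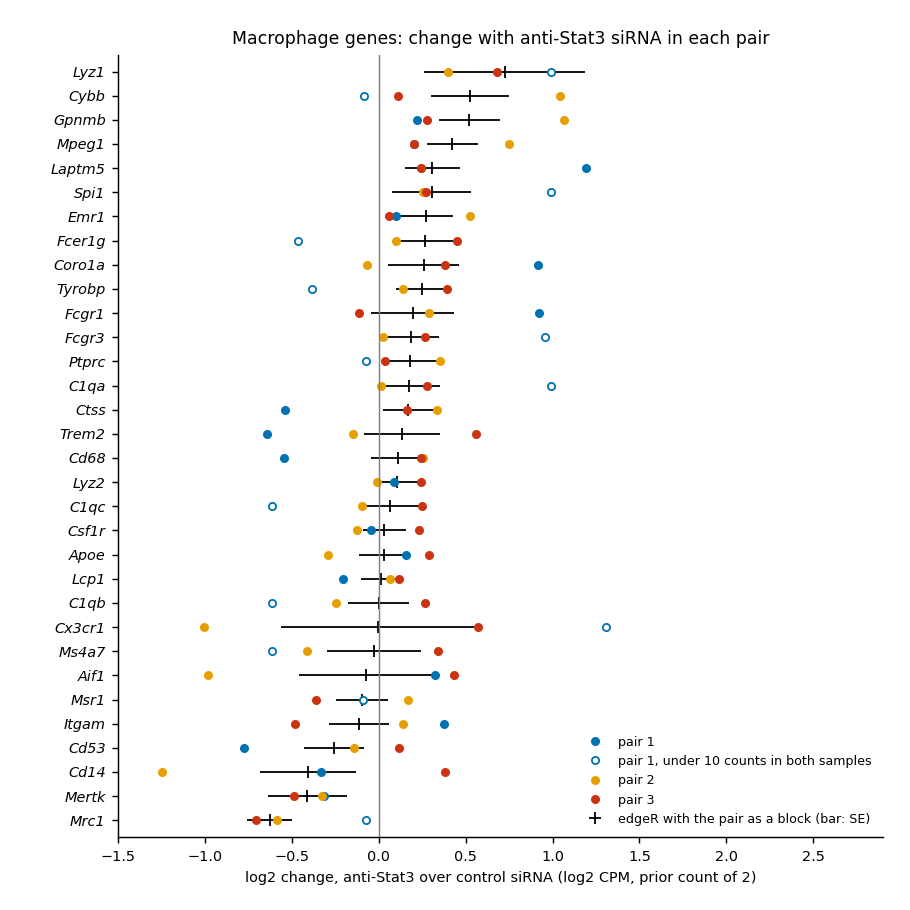
Log2 change after anti-Stat3 siRNA of the 32 tested macrophage genes in pair 1 (blue), pair 2 (orange) and pair 3 (red), with open points where both pair 1 samples had under 10 counts; black ticks with bars are the edgeR estimate with the pair as a block and its SE. Most points lie within 1 log2 unit of 0 and the pairs often disagree in sign, while all 3 points of Mrc1 lie below 0 and all 3 of Gpnmb and Mpeg1 above it.

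Mrc1 came nearest to a call. In pair 2 it went from 43.7 to 29.1 CPM between control and anti-Stat3 siRNA, and in pair 3 from 77.4 to 47.3 CPM, while pair 1 held 4 counts in each sample. The change was -0.63 ± 0.13 (SE, edgeR adjusted p = 0.17) in the blocked edgeR fit and -0.63 ± 0.21 (SE, DESeq2 adjusted p = 0.12) in the blocked DESeq2 fit. By sign it was lower in 3 of 3 pairs, but the -0.07 of pair 1 comes from the scaling of equal counts. Without pair 1, the blocked edgeR fit called it, at -0.65 with an edgeR adjusted p of 0.024. That fit called 703 genes in all, beside 8 with all samples, and Mrc1 was the single member among the 703. The call was thus not particular to the members. Mrc1 was described in full after its values were seen.

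Of the genes higher in every pair, Mpeg1 had log2 changes of 0.20, 0.75 and 0.20 in pairs 1, 2 and 3, and Gpnmb of 0.22, 1.06 and 0.28. In the blocked edgeR fit these came to 0.42 ± 0.14 (SE, edgeR adjusted p = 0.34) and 0.52 ± 0.17 (SE, edgeR adjusted p = 0.33), so neither passed. Cybb, named after its values were seen, had changes of -0.09, 1.04 and 0.11, most of it in pair 2 where it went from 12.5 to 25.9 CPM, and a blocked estimate of 0.53 ± 0.22 (SE, edgeR adjusted p = 0.46). Cd14 had the opposite course in pair 2, from 144 to 60.3 CPM, and in pair 3 it went from 55.8 to 72.6 CPM. Blocked estimates of other abundant members lay nearer to 0, for Lyz2 at 0.11 ± 0.13 (SE, edgeR adjusted p = 0.80), for Apoe at 0.03 ± 0.15 (SE, edgeR adjusted p = 0.96), for Csf1r at 0.03 ± 0.12 (SE, edgeR adjusted p = 0.95) and for C1qa at 0.17 ± 0.18 (SE, edgeR adjusted p = 0.76).

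The median log2 change was -0.06 in pair 1, where 15 of 32 were higher, 0.04 in pair 2, where 18 were, and 0.25 in pair 3, where 27 were, beside 0.00, 0.00 and 0.01 over all genes. Over the 15 members with at least 20 counts summed over the samples of each pair the medians were -0.05, -0.01 and 0.23, so that pairs 1 and 2 lay near 0. The summed level after anti-Stat3 siRNA was 0.893, 1.00 and 1.15 times that of the control in the 3 pairs. Each pair is 1 sample against 1, so these values have no replicate check. In pair 3, Tyrobp went from 30.7 to 40.3 CPM, Trem2 from 23.4 to 34.5 CPM and Fcer1g from 22.2 to 30.4 CPM, while Mrc1, Itgam, Msr1, Mertk and Fcgr1 were lower.

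Other genes of phagocytes, in lists that do not include the members, were in many cases higher in pairs 2 and 3 as well. In the list of signalling proteins, integrins and NADPH oxidase subunits, 18 of 22 were higher in pair 2 than in pair 1. In pair 3, 19 of 22 were, and the median log2 differences were 3.92 and 4.79. For this list and those below, 14.0% and 14.9% of all genes were higher and 12.1% and 14.1% lower. These counts lean on the filter as those of the members do. A gene hardly detected in pair 1 was tested only if it was high in the other pairs. The lists were also chosen with earlier results known. Plek, the platelet and leukocyte protein pleckstrin, had 4.46, 37.2 and 51.5 CPM across the controls and 3.13, 37.1 and 46.9 CPM across the anti-Stat3 samples. Cyba, the small oxidase subunit that many cells transcribe, had 42.2, 39.5 and 61.4 and 48.6, 38.1 and 90.5 CPM and passed in pair 3 only. Lyn, a Src family kinase, had 26.4, 21.6 and 20.2 and 21.9, 28.4 and 26.8 CPM and passed in neither.

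In the list of pattern recognition and scavenger receptors, 28 of 32 were higher in pair 2 and 28 in pair 3 (1, Tlr2, was lower in pair 3), with medians of 4.19 and 4.94. Sirpa, the receptor for CD47, had 31.8, 112 and 174 and 29.6, 93.6 and 157 CPM, and Lilrb4, an inhibitory immunoglobulin-like receptor, 0.405, 38.4 and 62.0 and 0.752, 43.6 and 66.9 CPM. Sirpa was thus well detected in pair 1 and Lilrb4 hardly at all. Unc93b1, the chaperone of endosomal Toll-like receptors, differed by no more than 1.12 on the log2 scale.

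Fewer of the myeloid transcription factors passed: 7 of 13 were higher in pair 2 and 9 in pair 3, with 1 lower in each (Irf5 and Tfec). The 3 most abundant, Runx1, Klf4 and Maf, had their lowest level in Maf (22.0, 29.3 and 43.1 CPM across the anti-Stat3 samples) and their highest in Runx1 (79.7, 165 and 146 CPM across the controls), and they differed by at most 1.02 on the log2 scale between pairs 1 and 3. Irf8, a factor of monocyte and macrophage identity named after its values were seen, had a log2 difference of 5.09 in pair 3 against pair 1. Irf8 had 0.405, 4.97 and 8.03 and 0.188, 6.79 and 12.8 CPM.

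Genes linked to macrophage states were counted in 2 lists, and the difference between the lists was not tested. Of genes linked to resident or alternatively activated macrophages, 9 of 13 were higher and 2 lower in pair 2, and 8 were higher and 0 lower in pair 3. Axl and Gas6, a receptor and ligand that fibroblasts also make, were the most abundant of that list, and Gas6 was the one member of it called after anti-Stat3 siRNA by DESeq2 with the block, at 0.59 ± 0.14 (SE, DESeq2 adjusted p = 0.0027). Stab1, a scavenger receptor of such macrophages named after its values were seen, had 3.31, 60.0 and 141 and 2.63, 49.6 and 110.5 CPM. Of inflammatory genes, 3 of 11 were higher and 5 lower in pair 2, and 3 and 6 in pair 3. The prostaglandin synthase gene Ptgs2 had 3307, 370.1 and 266 CPM across the controls and 2026, 471 and 143 CPM across the anti-Stat3 samples, highest in pair 1, where the members were lowest. Plac8, called higher after anti-Stat3 siRNA by DESeq2 with the block (0.78 ± 0.19 (SE, DESeq2 adjusted p = 0.0058)), was also highest there. The chemokine genes Ccl3 and Ccl4 and the costimulatory gene Cd86 were the 3 higher in pairs 2 and 3.

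Of lipid-handling, lysosomal and osteoclast-like genes, 8 of 25 were higher and 3 lower in pair 2, and the same numbers in pair 3, with medians of 0.25 and 0.34. Spp1, encoding osteopontin, had 1516, 9812 and 1963 and 898, 7610.1 and 1820.0 CPM and was highest in pair 2. The lysosomal genes Ctsd and Psap lay between 1052 and 2357 CPM in all samples. Grn and Abcg1 were called higher after anti-Stat3 siRNA by DESeq2 with the block, at 0.54 ± 0.15 (SE, DESeq2 adjusted p = 0.034) and 0.85 ± 0.22 (SE, DESeq2 adjusted p = 0.0085), and edgeR called 0 genes of any of these lists with or without the block.

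Markers of other cell types were checked in the same samples (the plot of marker lists). Lymphocyte genes were nearly absent: the summed level of 12 T or NK cell genes was 0.952 to 1.76 CPM, with Cd3d, Cd3g, Cd8a and Ncr1 at 0 in all samples, and that of 7 B or plasma cell genes 0.0767 to 0.376 CPM. Of the dendritic cell genes, Flt3, Siglech and Cd209a were at 0 in all samples, and most of the summed 18.5 to 45.5 CPM was Ly75. The 5 adipocyte genes reached at most 0.0767 CPM. The 9 neutrophil genes had 206, 98.1 and 3.54 CPM across the controls and 130.5, 53.6 and 0.997 CPM across the anti-Stat3 samples, nearly all of it Ltf, and were thus lowest in pair 3, where the members were highest.

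**Figure D5:**
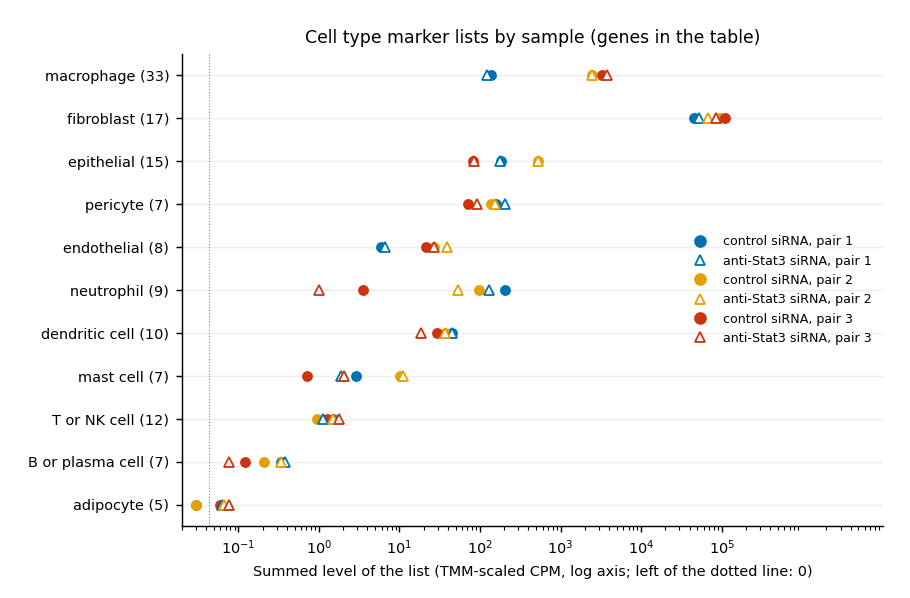
Summed level in CPM (log axis) of the macrophage genes and of 10 marker lists of other cell types in the 6 samples, with the number of genes of each list in the table in brackets; colours are pairs, circles control and triangles anti-Stat3 siRNA, and points left of the dotted line are at 0. The macrophage row splits pair 1 at 121 and 136 CPM from the rest at 2431 CPM and above, a split that the fibroblast row does not show at that size.

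Other lists moved with the pairs as well. Of 12 epithelial genes tested, 10 were higher in pair 2 and 10 lower in pair 3 than in pair 1, and the list summed to 183, 532 and 82.3 CPM across the controls and 178, 525 and 84.6 CPM across the anti-Stat3 samples. Its defining genes Epcam and Cdh1 had 30.1, 87.9 and 4.67 and 16.8, 79.5 and 5.69 CPM across the controls, while Csn2 and Wap were at 0 in all samples. Endothelial genes summed to between 5.95 and 39.3 CPM and were lowest in pair 1, mostly through Kdr. Of 17 fibroblast genes, 8 were higher and 4 lower in pair 2, and 10 and 2 in pair 3, with summed levels of 45309.8, 94737 and 111372 CPM across the controls and 51761, 68264 and 84068 CPM across the anti-Stat3 samples. The part of these lists in the members' difference was not tested.

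Interferon-stimulated genes also divided pair 1 from the others, in their change and not only their level. The 26 genes summed to 5608, 741 and 740.2 CPM across the controls and 7199, 7116 and 7269.6 CPM across the anti-Stat3 samples, with median log2 changes of 0.39, 3.32 and 3.38 in pairs 1, 2 and 3. All 26 were higher after anti-Stat3 siRNA in every pair, where 8 of the 32 macrophage genes were, and 33.8% of all genes had the same sign, up or down, in every pair. Of the 26, edgeR called 0 with or without the block, and DESeq2 with the block called 4. A call of 0 in edgeR thus also occurred for genes with a large change in pairs 2 and 3. Control 1 was thus high for interferon-stimulated genes and low for macrophage genes, and the other 2 controls the reverse. Whether these patterns bear on each other was not tested.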

How the data were processed

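The members and the other gene lists were chosen with earlier results of these data known. RNA was extracted with TRIzol and selected for poly(A), and libraries were made with a TruSeq kit, per the labels' protocols. Raw counts per gene symbol were deposited by the authors, and the submitters' processing notes name TopHat2 2.0.10, HTSeq and the build mm9. The annotation, strand setting and treatment of shared reads are not given in the sources used here. Values of near copies and overlapping genes are therefore uncertain. The column names say "sh" where the titles say "si", and each column was matched by group and number. No sample duplicated another.

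Counts were tested in R 4.3.3 with edgeR 4.0.16 (TMM, filterByExpr at a count of at least 10 and a sum of at least 15, quasi-likelihood F test, Benjamini-Hochberg over 13284 genes, threshold 0.05), with the group alone for the siRNA and with siRNA and pair as terms between pairs. The prior count for log2 CPM was 2. Alternatives were DESeq2 1.42.0, limma-voom (limma 3.58.1), other scalings, filters and fits without each sample. The fits were tested on simulated data. Ratios between pairs are of counts summed over a pair and scaled by library size, with exact 95% binomial intervals, and shares of counts have Wilson intervals. Both cover counting error only. Exon lengths came from GENCODE M21 (GRCm38), another build than the authors'.

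Samples of the same number were taken as pairs because, across 13284 genes, they departed from their group means together (correlations of 0.83, 0.82 and 0.83, against -0.16 or below for other combinations). Without the members the first 3 values were 0.82, 0.82 and 0.82. Departures from a mean of 3 samples sum to 0, so the negative values of other combinations follow in part from the positive ones. What a number stands for was not given in the sources used here.

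Full values per sample went to the 12 tested members with the highest mean CPM, to members called by edgeR and to tested members not at least 2-fold higher in pairs 2 and 3. From other lists the 3 most abundant genes and up to 4 called ones were eligible. Promoter windows were found for 26 members. Some genes of the other lists are not reported here.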

Additional observations from a re-analysis of the deposited data

How the results depend on the processing

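For the siRNA, 0 members were called under each of the other tools, scalings and filters tried with all samples. The count of all genes called was 0 with the group alone, 17 in DESeq2 with the group alone, 8 in edgeR and 8 in limma-voom with the replicate block, and 220 in DESeq2 with the replicate block, and the cause was not tested. Leaving out 1 sample, which breaks a pair, or 1 pair with the block, the count of members ranged from 0 to 1, that of all genes from 0 (40 without control 1) to 703 (without pair 1), and the members' median from -0.73 (without anti-Stat3 3) to 0.98 (without control 3). Single members changed sign in those fits, with ranges of -0.65 to 0.77 for Lyz2, -0.80 to 0.62 for Apoe, -0.14 to 1.25 for Mpeg1, -0.46 to 0.62 for Lcp1, -0.43 to 0.98 for Ctss, -0.94 to 1.14 for C1qa, -0.85 to 1.34 for Laptm5, -1.08 to 1.11 for C1qc, -0.072 to 1.42 for Cybb, -0.98 to 0.34 for Cd14, -0.60 to 0.22 for Cd53, -0.70 to 0.55 for Msr1, -0.65 to 0.42 for Aif1 and -1.47 to 0.22 for Mrc1. With the replicate block and a pair left out, sign changes were to -0.0033 for Apoe without pair 1, to -0.029 for Lcp1 and 0.033 for Cd14 without pair 2, and to -0.052 for Lcp1, 0.14 for Msr1 and -0.12 for C1qc without pair 3, and Aif1 was at 0.23 without anti-Stat3 2. Between pairs, the counts of members called higher stayed within 1.5 times for pairs 2 and 3 over pair 1 in all alternatives except the filter of 1 CPM in every sample, which left 9 members and gave 8 and 9 calls and a median of 3.77 for pair 3. For pair 3 over pair 2 that filter gave 4 calls and limma-voom 6, and leaving out a sample gave 1 to 20. Aif1 ranged from -0.26 to 1.27 for pair 2 over 1 and from -0.023 to 1.51 for pair 3 over 2, Cd14 from -1.20 to 0.10 and Msr1 from -0.028 to 0.47 for the latter. Depth limits the ratios of members with 0 to 3 counts in pair 1, of which there were 9.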
